A study of Mus musculus with 15 samples.

Results

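Liver messenger RNA was examined here for 9 genes of lipoprotein metabolism in newborn mice: Angptl8, Apoa1, Apoa4, Apob, Apoc3, Lpl, Lipc, Mttp and Scarb1. The members were chosen by name from 27553 genes tested, and Angptl8 was found on the array under its older name Gm6484. The 9 genes are covered by 13 of the 55681 probes. Where a gene had 2 probes, the one with the higher mean signal over all arrays stood for it, and this mean therefore chose the probe and is not a result. The mean levels of the chosen and the other probe were 6.557 and 6.555 for Apob, 5.98 and -1.10 for Apoc3, 5.39 and 3.28 for Lpl, and 3.99 and 1.24 for Scarb1.

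The 15 C57BL/6J pups, wild types and their knockout littermates, were taken on postnatal day 1, born by natural delivery to dams fed standard chow, and each liver was hybridised to its own 1-colour array. The wild-type group held 5 pups. The 10 knockout (KO) pups lacked the miR-379/miR-410 cluster of microRNAs through a deletion inherited from the mother, and were divided by blood glucose into normoglycemic KO pups with mild hypoglycemia (n = 3) and hypoglycemic KO pups with severe hypoglycemia (n = 7). Wild-type pups had 58.6 ± 9.56 mg/dl of glucose in the blood, normoglycemic KO pups 48 ± 6.93 and hypoglycemic KO pups 19.9 ± 9.34 (means ± SD). No source used here gives feeding state, sex or litter, and no group of wild-type pups with low glucose was measured, so that the deletion and low glucose cannot be told apart in the hypoglycemic pups. A level below is the log2 processed signal minus the log2 of that array's 75th percentile, so that 0 is the level of a probe at the 75th percentile of its array. Levels of different genes come from different probes and are not set against each other.

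Fat leaves the liver in very-low-density lipoproteins, particles that form when the microsomal transfer protein (Mttp) loads triglyceride onto apolipoprotein B (Apob). In the capillaries lipoprotein lipase (Lpl) digests that triglyceride, apolipoprotein C3 (Apoc3) slows the process, and secreted angiopoietin-like proteins such as ANGPTL8 and ANGPTL4 restrain the enzyme in different tissues in the fed and the fasted state. Hepatic lipase (Lipc) acts on remnants and high-density lipoprotein, whose main protein is apolipoprotein A1 (Apoa1) and whose cholesterol is taken up by the scavenger receptor SR-BI (Scarb1). Newborn pups move from glucose supplied by the placenta to fat-rich milk, and Apoa4, a component of newly made triglyceride-rich particles, is known to respond to fat intake and fasting.

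The sequences that locate the main measurements are shown first. The Angptl8 probe lies at chr9:21641729-21641788 on the plus strand of build mm9, per the file headers, and the Apoa4 probe crosses an exon junction between chr9:46049661 and chr9:46050404. The Scarb1 gene makes a pair of receptor forms, SR-BI and SR-BII, and its second probe matched the SR-BI transcript alone, which makes it the more specific of its probes. The 2 Apob probes are shown because they differ in the size of the result. Probe letters come from the deposited array files, in lower case throughout, with mm9 coordinates.
Scarb1, SR-BI probe, chr5:125761540-125761599, minus strand: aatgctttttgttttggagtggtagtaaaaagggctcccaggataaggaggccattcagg
Apoa4 probe, plus strand: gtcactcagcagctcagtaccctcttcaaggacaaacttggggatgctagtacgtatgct
Apob, first probe, chr12:8012697-8012756, plus strand: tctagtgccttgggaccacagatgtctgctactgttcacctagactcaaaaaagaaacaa
Apob, second probe, chr12:8023194-8023253, plus strand: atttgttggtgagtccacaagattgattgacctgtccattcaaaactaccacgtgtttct

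RefSeq promoters of build GRCm38.p6 were matched by symbol for 6 of the 9 members (Angptl8, Apoa1, Apoa4, Apob, Lipc and Mttp). The 250 bases before the start are shown for Angptl8, the gene with the largest difference, and for Apoa1 and Apoa4, a pair of members from one gene cluster. Each was searched on both strands for the E-box CACGTG, the CCAAT box, TATAAA, the forkhead motif TGTTTAC, the sterol element TCACNCCAC and the nuclear receptor hexamers AGGTCA and AGTTCA. Capitals mark a match.
Angptl8, chr9:21835260-21835509, plus strand: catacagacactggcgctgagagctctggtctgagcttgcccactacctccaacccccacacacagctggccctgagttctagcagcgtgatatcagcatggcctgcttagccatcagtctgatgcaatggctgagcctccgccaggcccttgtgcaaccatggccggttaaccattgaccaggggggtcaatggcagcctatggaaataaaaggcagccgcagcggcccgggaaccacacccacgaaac
Apoa1, chr9:46228380-46228629, plus strand: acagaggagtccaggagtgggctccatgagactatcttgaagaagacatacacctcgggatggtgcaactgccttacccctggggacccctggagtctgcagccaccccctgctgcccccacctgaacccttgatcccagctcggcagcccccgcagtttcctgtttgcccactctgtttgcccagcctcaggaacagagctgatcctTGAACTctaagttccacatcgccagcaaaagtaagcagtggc
Apoa4, chr9:46240594-46240843, plus strand: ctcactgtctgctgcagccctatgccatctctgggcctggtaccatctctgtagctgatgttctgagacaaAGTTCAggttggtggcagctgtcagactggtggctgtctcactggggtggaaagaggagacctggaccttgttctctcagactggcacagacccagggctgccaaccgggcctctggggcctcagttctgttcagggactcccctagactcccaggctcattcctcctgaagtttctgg
Apoa1 held AGTTCA on its reverse strand at position -42 and Apoa4 held it on its forward strand at position -179, counted back from the start, and 11.8% of all 32851 promoters held it. None of the 7 motifs was found in the Angptl8 window. These matches describe the letters only.

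Before the results, a few features of the arrays bear on them. All 13 probes were well above background on all 15 arrays, and no spot was saturated. Mirg, the RNA that hosts microRNAs of the deleted cluster, lay between 1.12 and 1.84 in wild type, between -2.56 and -2.45 in normoglycemic KO and between -2.78 and -0.99 in 6 hypoglycemic KO libraries. The library labelled hypoglycemic KO replicate 2 stood at 0.89, which goes against its label. Members' differences between groups that rest on it are given with and without it. So are the correlations among members, but not those with other genes. The labels do not state the bounds of the deletion, so it is not known here whether the Mirg probe lies inside them. Hepatocyte markers, 8 of 8 measured, had a mean level between 8.95 and 9.31 in every library. Pancreatic acinar markers, 10 of 11 measured, averaged 3.11 in wild-type replicate 2, 6.09 in normoglycemic KO replicate 2 and 3.24 in the library labelled hypoglycemic KO replicate 3, against -3.52 to 0.71 in the other 12. Macrophage markers, 7 of 7 measured, averaged 3.87 to 4.52 in wild type, 4.06 to 4.17 in normoglycemic KO and 3.74 to 4.20 in hypoglycemic KO.

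**Figure D1:**
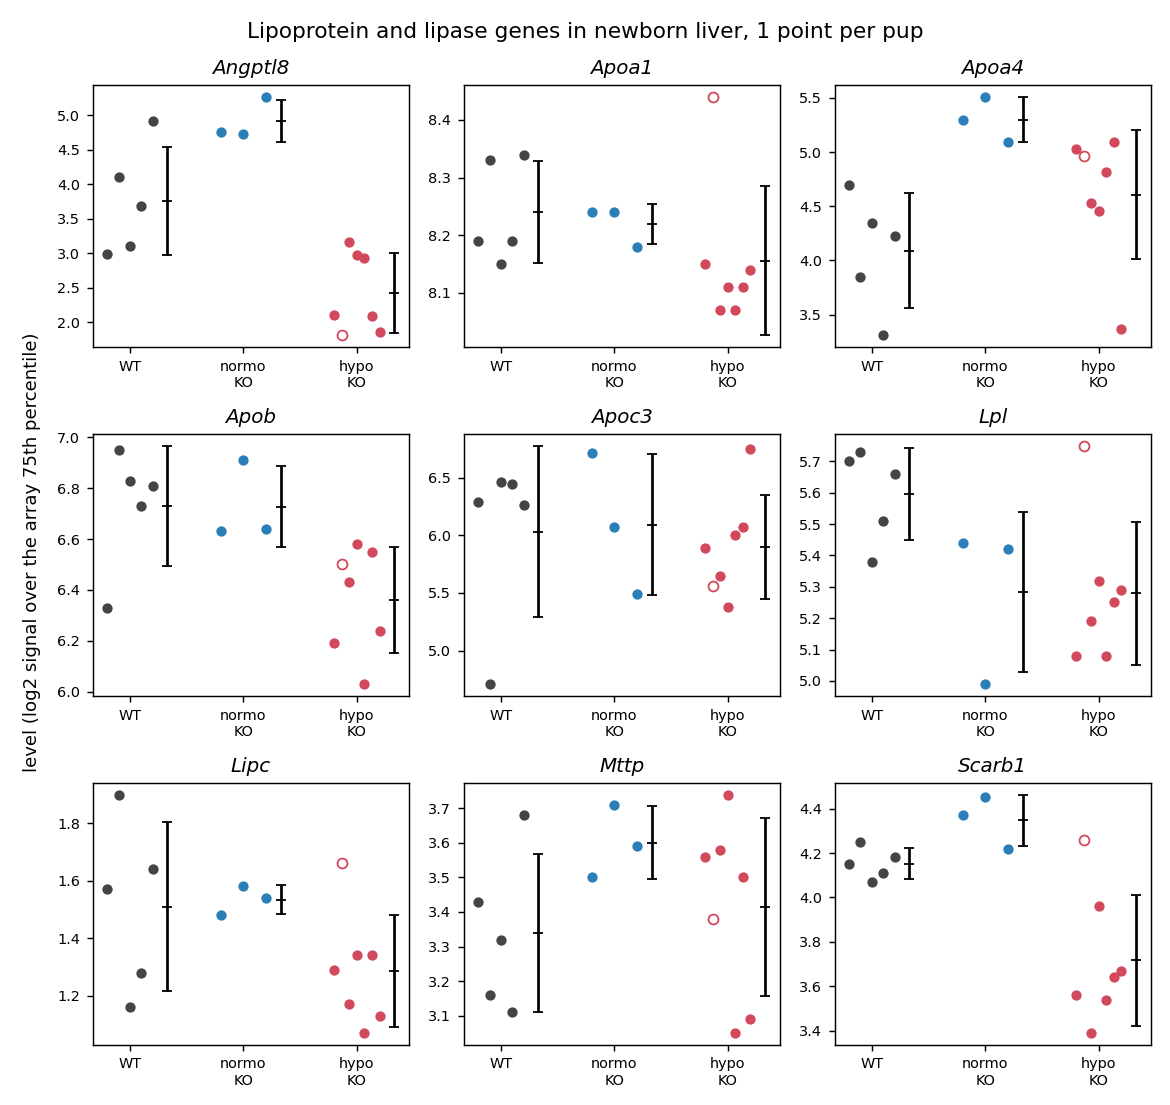
Level of each of the 9 genes (log2 signal over the array's 75th percentile) in wild-type, normoglycemic KO and hypoglycemic KO pups, 1 point per pup, with the mean and SD beside each group (n = 5, 3 and 7); the open circle is the library labelled hypoglycemic KO replicate 2. Angptl8 was at or below 3.17 in every hypoglycemic KO pup and at or above 4.73 in every normoglycemic KO pup.

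Angptl8 had the largest difference of the 9 genes and was the only one past the threshold in any comparison of groups. Wild-type replicates 1 to 5 read 2.99, 4.10, 3.10, 3.68 and 4.92, and normoglycemic KO replicates 1 to 3 read 4.76, 4.73 and 5.27. In the 7 hypoglycemic KO pups the lowest level was 1.81, the median 2.11 and the highest 3.17. Every hypoglycemic KO pup was therefore below every normoglycemic KO pup, and 6 of 7 were below every wild-type pup. Wild type was itself spread over 1.94 log2 units and reached into the range of both KO groups.

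Between the KO groups Angptl8 fell by 2.50 ± 0.41 log2 units (SE, n = 7 and 3), which is 5.67-fold, with an adjusted p of 0.0483 in limma with Benjamini-Hochberg adjustment over all genes. This made 1 of 9 members called, against 0.0544% of all genes, and Angptl8 ranked 14 among 27553 genes by p. Hypoglycemic KO differed by -1.34 ± 0.34 from wild type (2.53-fold lower, adjusted p = 0.0970), and normoglycemic KO by 1.16 ± 0.43 (2.24-fold higher, adjusted p = 0.963), both by limma. The comparisons share groups, so these values are not independent of one another.

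The call between the KO groups lay close to the threshold. It held without wild-type replicate 2 or 5 or hypoglycemic KO replicate 4 (adjusted p = 0.0156 to 0.0352 in limma) and was lost without each of the other 12 libraries, with differences of -2.63 to -2.33 and limma adjusted p from 0.0558 to 0.258 (Angptl8 stayed lower in all 15 of these fits). Without the library labelled hypoglycemic KO replicate 2, the Angptl8 difference was -2.40 with a limma adjusted p of 0.0882, and with the slide as a block it was -2.51 with a limma adjusted p of 0.0650. Within slides 1 and 2 alone the Angptl8 difference was -2.23 and -2.98, not called (limma adjusted p = 0.530 and 0.478). The call was also lost with no filter on dim probes, with outlier spots kept, with the probes of a gene averaged and with the 2 KO groups fitted alone (limma adjusted p = 0.0517 to 0.0758 for Angptl8). Adjusted over all kept probes in place of genes, the same difference had a limma adjusted p of 0.0630. Without wild-type replicate 1, the hypoglycemic KO difference from wild type passed the threshold for Angptl8 (-1.53, limma adjusted p = 0.0434).

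Angptl8 lies within the span of Dock6 in the RefSeq annotation, and Kank2 and Rab3d flank it. Dock6, a guanine nucleotide exchange factor, differed by 0.07 ± 0.11 between hypoglycemic KO and wild type, by -0.14 ± 0.14 between normoglycemic KO and wild type and by 0.21 ± 0.13 between the KO groups, none of them called. Between the KO groups, Rab3d, a small GTPase of secretory vesicles, differed by -0.68 ± 0.16 in hypoglycemic KO, with all 7 pups below all 3 (limma adjusted p = 0.0866). Kank2 differed by -0.55 ± 0.16, with 6 of 7 below all 3 (limma adjusted p = 0.109). The KO groups did not overlap for 8.87% of all genes.

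Lpl encodes the lipase that ANGPTL8 and ANGPTL4 act on. Its level was 5.70, 5.73, 5.38, 5.51 and 5.66 in wild type and 5.44, 4.99 and 5.42 in normoglycemic KO, and ran from 5.08 through a median of 5.25 to 5.75 in hypoglycemic KO. In hypoglycemic KO, 6 of 7 pups were below every wild-type pup, and the library labelled replicate 2 was above them all. The differences from wild type were -0.32 ± 0.12 in hypoglycemic KO (limma adjusted p = 0.188) and -0.31 ± 0.15 in normoglycemic KO (limma adjusted p = 0.963), and the KO groups differed by -0.01 with a 95% interval of -0.32 to 0.31. Without the library labelled hypoglycemic KO replicate 2, the difference of Lpl from wild type was -0.40 (limma adjusted p = 0.0806). The normoglycemic KO difference of Lpl was -0.16 without normoglycemic KO replicate 2, the library richest in pancreas transcripts, and -0.50 and -0.09 within slides 1 and 2.

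The second Lpl probe gave -0.19 in hypoglycemic KO and -0.22 in normoglycemic KO against wild type, also not called. In bulk liver, fewer cells of a type and less RNA per cell cannot be told apart. The macrophage marker list, whose cells are known to express Lpl, averaged 4.16 in wild type, 4.10 in normoglycemic KO and 3.88 in hypoglycemic KO, and adipocyte and muscle marker lists averaged below 0 in every library. The part of these cells in the Lpl levels was not tested.

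Lipc encodes hepatic lipase, which hepatocytes secrete. Its level was 1.57, 1.90, 1.16, 1.28 and 1.64 in wild type and 1.48, 1.58 and 1.54 in normoglycemic KO, and ran from 1.07 through a median of 1.29 to 1.66 in hypoglycemic KO, so the groups overlapped. In hypoglycemic KO, Lipc differed from wild type by -0.23 ± 0.13 (95% interval -0.50 to 0.05, limma adjusted p = 0.364) and from normoglycemic KO by -0.25 ± 0.15 (limma adjusted p = 0.393). Without the library labelled hypoglycemic KO replicate 2, the highest of the 7 for Lipc, these were -0.29 and -0.31. Without wild-type replicate 2 the Lipc difference from wild type was -0.13, without the 3 libraries richest in pancreas transcripts -0.11, and within slide 1 -0.37.

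Apob encodes the structural protein of very-low-density lipoprotein. By its first probe its level was 6.33, 6.95, 6.83, 6.73 and 6.81 in wild type and 6.63, 6.91 and 6.64 in normoglycemic KO, and ran from 6.03 through a median of 6.43 to 6.58 in hypoglycemic KO. All 7 hypoglycemic KO pups were below all 3 normoglycemic KO pups and below the wild-type mean, while wild-type replicate 1 lay inside the hypoglycemic range. Apob, by this probe, and Angptl8 were the 2 of 9 members whose KO groups did not overlap, beside 8.87% of all genes. By the second Apob probe the KO groups overlapped, with 1 of 7 hypoglycemic KO pups below all 3.

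In hypoglycemic KO, Apob differed from wild type by -0.37 ± 0.12 (1.29-fold lower, limma adjusted p = 0.144) and from normoglycemic KO by -0.37 ± 0.15 (limma adjusted p = 0.189). Normoglycemic KO and wild type had nearly the same mean level of Apob, with a 95% interval of the difference from -0.33 to 0.33. The second Apob probe gave smaller differences, -0.25 against wild type and -0.16 between the KO groups, neither called, and the probes correlated at r = 0.60 over the 15 arrays. Without wild-type replicate 1, the first probe's difference from wild type was -0.47 and passed the threshold (limma adjusted p = 0.0473), and within slide 1 it was -0.21.

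Mttp, which loads triglyceride onto the APOB protein, overlapped in all 3 groups. Its level was 3.43, 3.16, 3.32, 3.11 and 3.68 in wild type and 3.50, 3.71 and 3.59 in normoglycemic KO, and ran from 3.05 through a median of 3.50 to 3.74 in hypoglycemic KO. The hypoglycemic KO difference from wild type was 0.08 ± 0.13 (95% interval -0.21 to 0.36), and the normoglycemic KO difference was 0.26 ± 0.17 (95% interval -0.09 to 0.62), or 0.16 with the 3 pancreas-rich libraries left out. The Apob difference of hypoglycemic KO from wild type had a 95% interval of -0.63 to -0.10, which overlaps the first of these. Mttp and Apob were not tested against each other.

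Apoa1, Apoc3 and Apoa4 follow one another on chromosome 9, with gaps of 2581 and 5208 bases in the RefSeq annotation of GRCm38.p6, and Apoa5 lies 25150 bases beyond Apoa4. Apoa4 was highest in the normoglycemic KO pups. Its level was 4.70, 3.85, 4.35, 3.31 and 4.23 in wild type and 5.30, 5.51 and 5.09 in normoglycemic KO, and ran from 3.37 through a median of 4.82 to 5.09 in hypoglycemic KO. All 3 normoglycemic KO pups were above all 5 wild-type pups, and of the hypoglycemic KO pups 4 of 7 were.

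Apoa4 was 1.21 ± 0.36 higher in normoglycemic KO than in wild type (2.32-fold), but its limma adjusted p was 0.963. It was the only 1 of 9 members without overlap in that comparison, beside 3.97% of all genes, or 2.46% for higher levels alone. No member and no gene was called there (0% of 27553), and 2 of 9 members, Apoa4 and Angptl8, had an unadjusted p under 0.05, beside 4.82% of all genes. In hypoglycemic KO, Apoa4 differed from wild type by 0.52 ± 0.29 (limma adjusted p = 0.355) and from normoglycemic KO by -0.69 ± 0.34 (limma adjusted p = 0.289). The first of these was 0.32 without wild-type replicate 4. Without hypoglycemic KO replicate 7, which was at 3.37, the 2 differences of Apoa4 were 0.73 and -0.49.

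The intestine also makes Apoa4, and intestinal markers, 6 of 9 measured, averaged -3.88 to -2.29 in wild type, -3.23 to -2.89 in normoglycemic KO and -4.16 to -2.03 in hypoglycemic KO. Sis, Alpi and Cdx1 were well above background on 1 of 5 wild-type arrays each and on at most 2 of 3 normoglycemic KO arrays, and Cdx2, Muc2 and Cdh17 did not pass the filter. Vil1 was well above background on all 15 arrays and Lct on 4 of 5 wild-type, 3 of 3 normoglycemic KO and 6 of 7 hypoglycemic KO arrays, both at levels below 0. Fabp2 was abundant, at 3.39 to 5.01 (median 3.93) in wild type and 4.16 to 4.75 (median 4.72) in normoglycemic KO. In hypoglycemic KO it was at 2.11 to 4.04 (median 3.27). The median was highest in normoglycemic KO for Fabp2, Lct and Cdx1. It was highest in wild type for Vil1 and in hypoglycemic KO for Sis and Alpi. The mean of Apoa4 was highest in normoglycemic KO and lowest in wild type, while the Fabp2 median was lowest in hypoglycemic KO. The part of intestinal RNA in the Apoa4 levels was not tested.

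Apoa1, the main protein of high-density lipoprotein, had the narrowest spread, with 10 spots averaged per array. Its level was 8.19, 8.33, 8.15, 8.19 and 8.34 in wild type and 8.24, 8.24 and 8.18 in normoglycemic KO, and ran from 8.07 through a median of 8.11 to 8.44 in hypoglycemic KO. The highest value belonged to the library labelled replicate 2, and 5 of the other 6 hypoglycemic KO pups were below every wild-type pup. The difference from wild type was -0.09 ± 0.07 in hypoglycemic KO (95% interval -0.24 to 0.07) and -0.02 ± 0.09 in normoglycemic KO (95% interval -0.21 to 0.18). Without the library labelled hypoglycemic KO replicate 2, Apoa1 differed by -0.14 from wild type (limma adjusted p = 0.233) and by -0.12 between the KO groups, where it was -0.07 with it. The normoglycemic KO difference of Apoa1 was above 0 with quantile normalization and in the deposited values (0.04 in both).

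Apoc3 encodes an inhibitor of triglyceride clearance. Its level was 6.29, 4.71, 6.46, 6.44 and 6.26 in wild type and 6.71, 6.07 and 5.49 in normoglycemic KO, and ran from 5.38 through a median of 5.89 to 6.75 in hypoglycemic KO. Wild-type replicate 2, one of the libraries with pancreatic transcripts, was far below the other 4 wild-type pups. In hypoglycemic KO, Apoc3 differed from wild type by -0.13 ± 0.32, with a 95% interval of -0.83 to 0.56, and without wild-type replicate 2 it differed by -0.46 (limma adjusted p = 0.434). In normoglycemic KO, the difference of Apoc3 from wild type was 0.06 ± 0.40, and -0.27 without that library. The second Apoc3 probe gave -0.02 in hypoglycemic KO and -0.12 in normoglycemic KO against wild type. Between the KO groups this probe gave 0.10, and none of its differences was called.

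Scarb1 encodes SR-BI, the hepatocyte receptor for high-density lipoprotein cholesterol. By the probe shared by both transcript forms its level was 4.15, 4.25, 4.07, 4.11 and 4.18 in wild type and 4.37, 4.45 and 4.22 in normoglycemic KO, and ran from 3.39 through a median of 3.64 to 4.26 in hypoglycemic KO. In hypoglycemic KO, 6 of 7 pups were below all 8 of the other pups, at 3.96 or less. The 7th, the library labelled replicate 2, was at 4.26, above all 5 wild-type pups.

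In hypoglycemic KO, Scarb1 differed from wild type by -0.43 ± 0.13 (1.35-fold lower, limma adjusted p = 0.117) and from normoglycemic KO by -0.63 ± 0.15 (1.55-fold lower, limma adjusted p = 0.0864). Without the library labelled hypoglycemic KO replicate 2 these became -0.53 (limma adjusted p = 0.0313, called) and -0.72 (limma adjusted p = 0.0813). The second of them, for Scarb1 between the KO groups, was called without hypoglycemic KO replicate 4 (-0.67, limma adjusted p = 0.0360). Normoglycemic KO was 0.19 ± 0.16 above wild type, with a 95% interval of -0.15 to 0.53.

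The SR-BI probe, whose letters are given above, gave the same picture as the shared probe. It read 1.38, 1.55, 1.42, 1.32 and 1.34 in wild type, 1.56, 1.79 and 1.34 in normoglycemic KO, and 0.71 through a median of 0.93 to 1.47 in hypoglycemic KO. Its differences were -0.41 ± 0.13 against wild type and -0.57 ± 0.15 between the KO groups (limma adjusted p = 0.141 and 0.112 over all kept probes). The 2 Scarb1 probes correlated at r = 0.97 over the 15 arrays, a description, since they share every library. The endothelial cell list, another known site of Scarb1, averaged 2.76 in wild type, 2.77 in normoglycemic KO and 2.97 in hypoglycemic KO. The part of these cells in the Scarb1 levels was not tested.

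**Figure D2:**
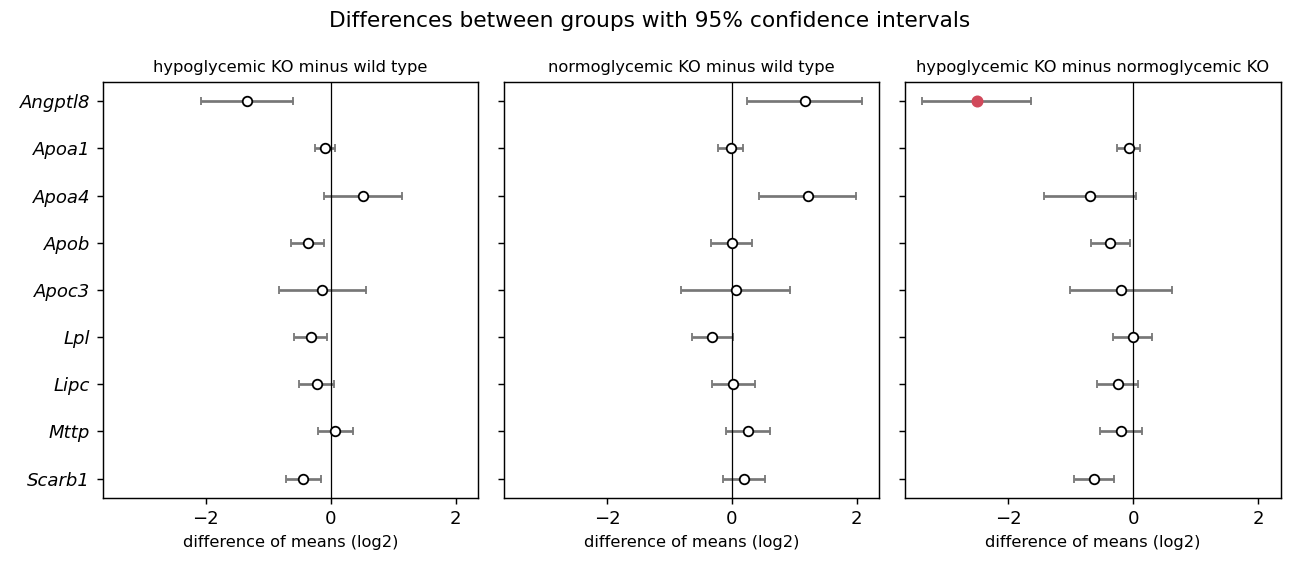
Difference of group means (log2) for each gene in the 3 comparisons, with 95% confidence intervals from limma; a filled point has an adjusted p under 0.05. Only Angptl8 between the KO groups is filled, at -2.50, and its other differences are -1.34 and 1.16.

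Over the members together, 0 of 9 were called between hypoglycemic KO and wild type, where 5 of 27553 genes were (0.0181%). At an unadjusted p under 0.05, 4 of 9 were lower (Angptl8, Apob, Lpl and Scarb1) and none was higher, beside 8.91% of all genes lower and 9.92% higher. In 0 of 9 members did these groups not overlap, beside 1.48% of all genes. Between the KO groups 3 of 9 had an unadjusted p under 0.05 (Angptl8, Apob and Scarb1, all lower), beside 19.4% of all genes in either direction. By the probes that stood for the genes, all 9 differences between the KO groups were below 0, as were 51.4% of all genes. The median of the 9 was -0.25 against -0.01 over all genes. The Lpl difference was -0.01, and the second probes of Lpl and Apoc3 gave 0.03 and 0.10. The genes were picked with earlier results of these arrays known, so these counts are descriptions.

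The 7 hypoglycemic KO pups were not alike. Replicates 5 and 7 were below the wild-type range for 7 of 9 members, while replicate 3 was below it for 3 and inside it for 6. For Apoc3 the lower end of that range was wild-type replicate 2, at 4.71, against 6.26 to 6.46 in the other wild-type pups. The library labelled hypoglycemic KO replicate 2 was the highest of the 7 for Apoa1, Lpl, Lipc and Scarb1 and the lowest for Angptl8. Over all genes that library was the highest of 7 for 16.6% of them, and 58.5% of its levels were inside the wild-type range, against 49.8% to 70.5% over all 7.

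**Figure D3:**
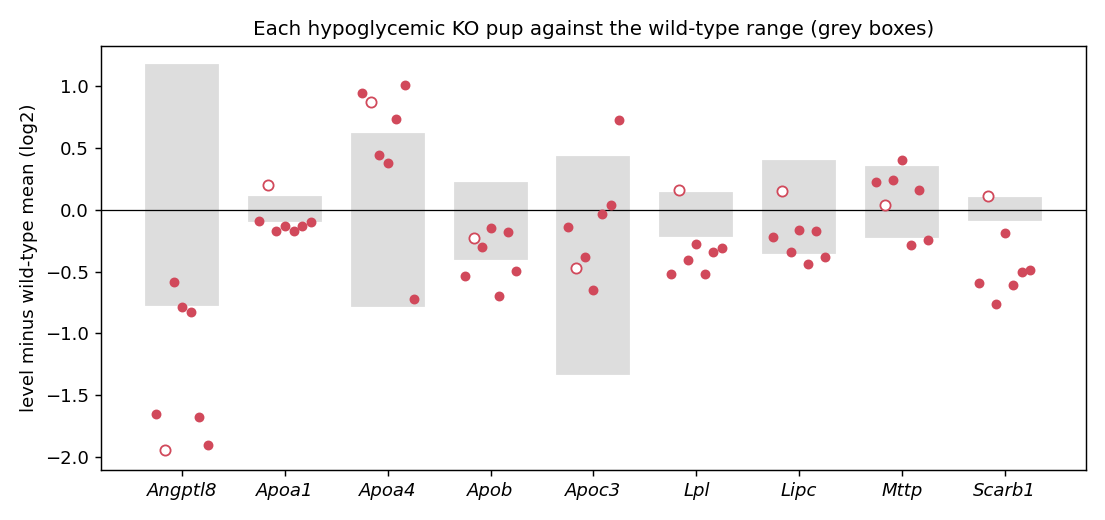
Level of each gene in each hypoglycemic KO pup minus the wild-type mean (log2), with grey boxes for the range of the 5 wild-type pups; the open circle is the library labelled replicate 2. For Scarb1 6 of 7 points lie below the box, while for Apoc3 6 of 7 lie inside it. The lower end of the Apoc3 box is wild-type replicate 2, at a level of 4.71, against 6.26 to 6.46 in the other wild-type pups.

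Within groups some members moved together from pup to pup. Over deviations from the group means on 15 arrays, the highest correlations among the 36 pairs were between Apoa1 and Scarb1 (r = 0.80), Apoa1 and Lipc (r = 0.79) and Apoa1 and Lpl (r = 0.71), and the median was 0.10. Without the library labelled hypoglycemic KO replicate 2 they were 0.42, 0.75 and 0.30, so the first and the third rested largely on it. Apoc3 and Lipc had the lowest value, at -0.66 with that library and -0.67 without it. These points share their arrays and are given without a test.

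Among 14761 other named genes well above background on all arrays, Dbp was most like Angptl8 by the same measure (r = 0.82), then Tent5a (r = 0.82) and Zfp119b (r = 0.80). For Apob they were Timd2, Igfals and Pak1 (r = 0.94, 0.94 and 0.93), and for Scarb1 Fgf1, Ercc8 and Oas1e (r = 0.91, 0.90 and 0.89). For Apoa4 they were Rasgrp3, Sprr1a and 1700010I14Rik (r = 0.88, 0.86 and 0.86), for Lpl Amacr, Itih2 and Serpinf1 (r = 0.89, 0.88 and 0.88) and for Lipc Sugct, Agmo and Acaa2 (r = 0.93, 0.92 and 0.91). For Apoa1 they were Batf2, Lrrc2 and Tbx10 (r = 0.90, 0.89 and 0.88), for Apoc3 Parl, Ubxn2a and Dcaf8 (r = 0.91, 0.86 and 0.85) and for Mttp Aasdhppt, Gm8618 and Cers2 (r = 0.93, 0.92 and 0.88). The highest of so many correlations over 15 arrays is large by selection, and no test was made. They were not recomputed without the library labelled hypoglycemic KO replicate 2. Over levels rather than deviations, the 3 genes named for Scarb1 had r = 0.85, 0.51 and 0.47.

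Blood glucose was recorded for each pup and ran from 9 to 33 mg/dl in hypoglycemic KO, 44 to 56 in normoglycemic KO and 50 to 72 in wild type. With a term for the group, no member followed glucose past the threshold: 0 of 9 were called, beside 0% of all genes, and 1 of 9 had an unadjusted p under 0.05, beside 18.1%. That gene was Apob, whose slope by its first probe was 0.14 ± 0.06 per 10 mg/dl (limma adjusted p = 0.239), while the second Apob probe gave 0.08 ± 0.07 (unadjusted p = 0.256). The slope was 0.19 ± 0.19 for Angptl8 (95% interval -0.22 to 0.59), 0.09 ± 0.07 for Scarb1, 0.11 ± 0.07 for Lipc and -0.21 ± 0.15 for Apoa4 (95% interval -0.54 to 0.13), none called. Without hypoglycemic KO replicate 7 the slope of Apoa4 was -0.08.

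Within the 7 hypoglycemic KO pups 0 of 9 were called, beside 0% of all genes, and 0 of 9 had an unadjusted p under 0.05, beside 15.8%. There the slope of Angptl8 was -0.06 ± 0.24 per 10 mg/dl and that of Scarb1 0.11 ± 0.10. Over all 15 pups without a term for the group, 3 of 9 members were called, beside 16.9% of all genes. They were Angptl8 (0.40 per 10 mg/dl, limma adjusted p = 0.0251), Scarb1 (0.12, limma adjusted p = 0.0146) and Apob by its first probe (0.11, limma adjusted p = 0.00853). Second probes were not fitted in this way. The groups were formed by glucose, so the slope without a group term holds the difference between groups.

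**Figure D4:**
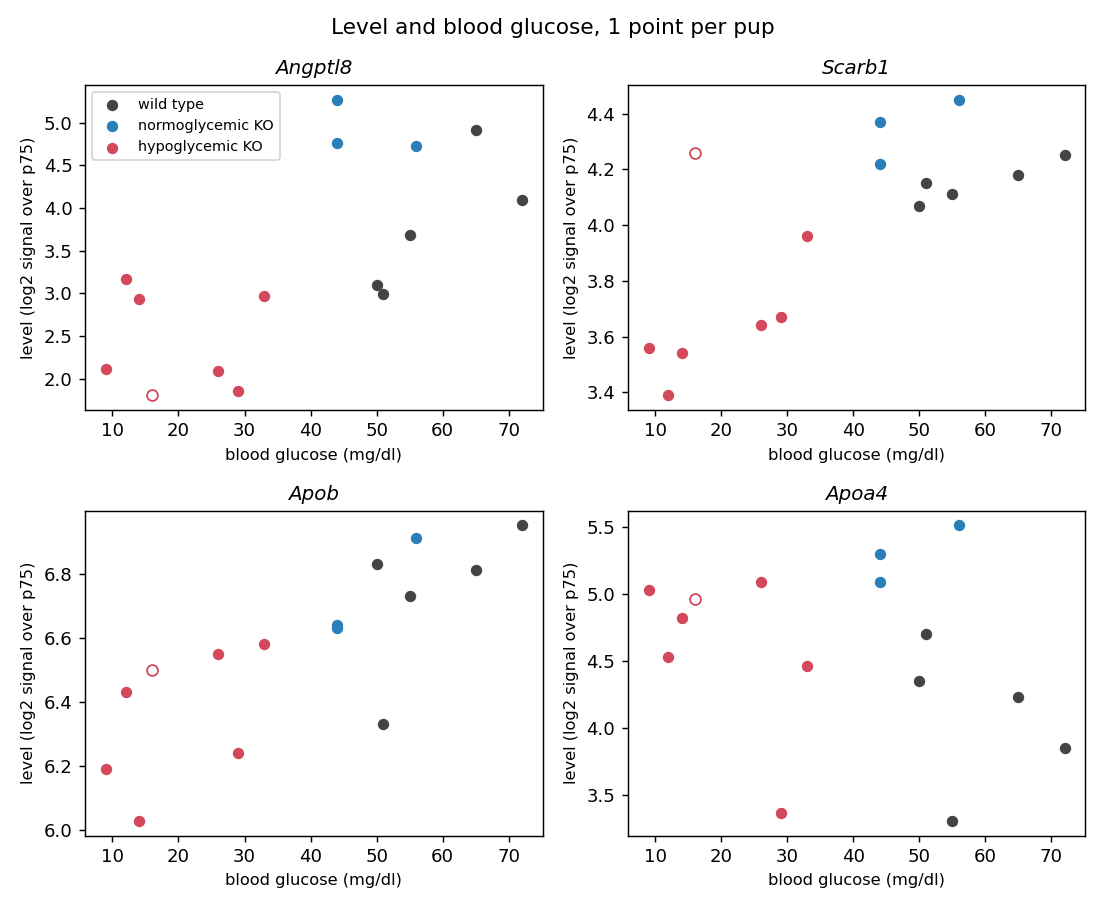
Level of Angptl8, Scarb1, Apob and Apoa4 (log2 signal over the array's 75th percentile, p75) against blood glucose in mg/dl, 1 point per pup; the open circle is the library labelled hypoglycemic KO replicate 2. At 44 to 56 mg/dl the normoglycemic KO pups lie at 4.73 to 5.27 for Angptl8, while the wild-type pups at 50, 51 and 55 mg/dl lie at 3.10, 2.99 and 3.68. The wild-type pups at 65 and 72 mg/dl lie at 4.92 and 4.10, and the difference of these groups was not called.

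The wider pathway was read from 6 lists, which include the 9 members, and 108 of their 110 genes were measured. Between hypoglycemic KO and wild type none was called, and at an unadjusted p under 0.05, 33 were lower and 16 higher, beside 8.91% and 9.92% of all genes. Without the 9 members, which were chosen with results known, 29 of 99 were lower and 16 higher. Apart from Angptl8, none of the genes named below from these lists passed the threshold in a comparison of groups. Hypoglycemic KO and wild type did not overlap for 1.48% of all genes, and the KO groups for 8.87%. For normoglycemic KO and wild type that share was 3.97%. Angptl4, which inhibits lipoprotein lipase in fasting, lay between 5.40 and 6.41 in wild type, between 5.02 and 6.25 in normoglycemic KO and between 6.50 and 7.25 in hypoglycemic KO. All 7 hypoglycemic KO pups were thus above all 8 of the others, by 0.86 ± 0.22 against wild type (1.81-fold, limma adjusted p = 0.0963) and 1.09 ± 0.26 against normoglycemic KO (2.13-fold, limma adjusted p = 0.0864). Of the 7 genes of the ANGPTL family, Angptl8 included, 1 had an unadjusted p under 0.05 with a higher level and 3 with a lower level in hypoglycemic KO against wild type.

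Of the 18 apolipoproteins and related genes, 15 were lower and 3 higher in hypoglycemic KO than in wild type. Over all 27553 genes, 12990 were lower and 14563 higher. The median of the list was -0.19 against 0.02 over all genes. At an unadjusted p under 0.05, 8 were lower, beside 8.91% of all genes. The list includes Apoa1, Apoa4, Apob and Apoc3, which were chosen with results known. Pon1, an antioxidant enzyme carried on high-density lipoprotein, differed by -0.94 ± 0.22 from wild type in hypoglycemic KO (1.92-fold lower, 6 of 7 below all 5, limma adjusted p = 0.0872), the exception being the library labelled replicate 2, at 5.69. In normoglycemic KO, Pon1 differed by -0.71 ± 0.28, with all 3 pups below all 5 (limma adjusted p = 0.963), and the KO groups differed by -0.24 ± 0.26. Apoa5, which promotes triglyceride clearance and is the neighbour of Apoa4, was at 2.67 to 4.13 in wild type, 2.87 to 3.38 in normoglycemic KO and 3.61 to 4.45 in hypoglycemic KO. All 7 hypoglycemic KO pups were above all 3 normoglycemic KO pups for Apoa5, by 0.95 ± 0.29 (limma adjusted p = 0.123), while Apoa4 differed by -0.69 in the same comparison.

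Of the lipases and their cofactors, 16 of 17 genes were measured. In hypoglycemic KO against wild type, 2 were higher and 5 lower at an unadjusted p under 0.05, beside 9.92% and 8.91% of all genes. Pnpla2, the adipose triglyceride lipase that opens stored fat, was 1.45 ± 0.34 above wild type (2.73-fold, 5 of 7 above all 5, limma adjusted p = 0.0872) and 1.58 ± 0.41 above normoglycemic KO (2.99-fold, all 7 above all 3, limma adjusted p = 0.0956). Ces1g, a carboxylesterase, differed by -1.58 ± 0.65 between hypoglycemic and normoglycemic KO (all 7 below all 3, limma adjusted p = 0.204).

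The 20 genes of lipoprotein assembly and secretion had a median difference of 0.02 between hypoglycemic KO and wild type. At an unadjusted p under 0.05, 4 were higher and 5 lower, beside 9.92% and 8.91% of all genes. Tm6sf2, needed to lipidate secreted particles, differed by -0.52 ± 0.17 (limma adjusted p = 0.138), and Cidec, a lipid droplet protein, by 1.20 ± 0.51 (limma adjusted p = 0.223). Soat2, which makes cholesteryl esters for secreted particles, differed by -0.89 ± 0.30 between hypoglycemic and normoglycemic KO (all 7 below all 3, limma adjusted p = 0.140).

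Of 24 listed receptors and transporters, 23 were measured. Between hypoglycemic KO and wild type, 3 were higher and 6 lower at an unadjusted p under 0.05, beside 9.92% and 8.91% of all genes. Pdzk1, the adaptor protein that holds SR-BI at the hepatocyte surface, was at 3.91 to 4.96 in wild type, 4.91 to 5.11 in normoglycemic KO and 3.19 to 4.77 in hypoglycemic KO. In hypoglycemic KO, Pdzk1 differed from normoglycemic KO by -1.18 ± 0.30 (2.26-fold lower, all 7 below all 3, limma adjusted p = 0.0946) and from wild type by -0.64 ± 0.25 (limma adjusted p = 0.198). Abcg5, which with ABCG8 exports sterols to bile, differed from wild type by -1.02 ± 0.40 in hypoglycemic KO and -1.70 ± 0.50 in normoglycemic KO (limma adjusted p = 0.192 and 0.963), and all 3 normoglycemic KO pups were below all 5 wild-type pups.

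**Figure D5:**
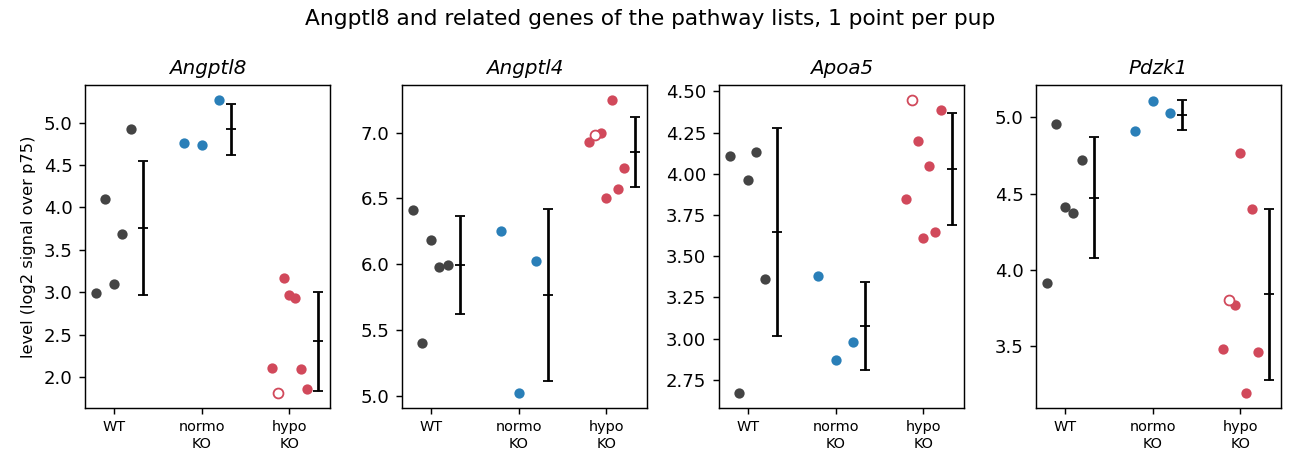
Level of Angptl8 and of 3 other genes of the pathway lists (log2 signal over the array's 75th percentile, p75) by group, 1 point per pup, with the mean and SD beside each group; the open circle is the library labelled hypoglycemic KO replicate 2. In hypoglycemic KO Angptl4 lies at 6.50 to 7.25, above the other groups, and Pdzk1 lies at 3.19 to 4.77.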

How the data were processed

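Total RNA from 15 livers was labelled with Cy3 and hybridised to 1-colour arrays. Per the file headers, Agilent Feature Extraction 10.10 read the spots and gave the intensity used here, a processed signal with background subtracted and detrended within the array. The authors also deposited log2 values of 40048 probes, with column medians of 7.80 and the limma package named in the submitters' processing notes. They followed the log2 median spot signal at r = 0.99986 to 0.99999 in each array. This sets their scale and direction as log2 level and shows no gene centring, and their background step is not given in the sources used here.

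Control and outlier spots were left out, spots of a probe were averaged, and levels were log2 intensity minus each array's 75th percentile (663 to 912 units). A probe was kept if 3 or more arrays of the 15 read it well above background (41151 of 55681). Of the probes, 27235 were named through RefSeq accessions, 3581 by a current symbol, 565 by a synonym, and 24300 kept the file's name. A gene was represented by its probe of highest mean, which gave 27553 genes. Means of the 3 groups were compared in limma 3.58.1 (R 4.3.3) with moderated variances and Benjamini-Hochberg adjustment, threshold 0.05, and the scripts were tested on simulated data. The number of arrays limits the precision. Promoter letters and gene neighbours come from RefSeq tables of GRCm38.p6, and probe coordinates are mm9.

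The 9 members, the pathway and marker lists and the tests were chosen with earlier results of these data known. Named are all members with all their probes, per list and comparison the genes with the largest difference in each direction (some of which are left unprinted), any called list gene, and per member the 3 most correlated genes; the genes next to Angptl8 were added. Alternatives were quantile normalization, normexp background, the deposited values, other filters, outlier spots kept, means of probes, slide, array row and replicate number as blocks, each slide alone, only the groups compared, each library left out, the 3 libraries richest in pancreas transcripts left out, and, added after seeing the data, those 3 together with the library labelled hypoglycemic KO replicate 2.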

Additional observations from a re-analysis of the deposited data

Results flagged for a closer look

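In 4 of 26 combinations of a probe and a group of at least 4 pups, 1 pup stood apart from the rest by Dixon's criterion, which chance alone meets in about 1 in 20 groups. Apoa1 was at 8.44 in the library labelled hypoglycemic KO replicate 2, against 8.07 to 8.15 in the other 6 pups of that group. Lpl was at 5.75 in the same library, against 5.08 to 5.32 in the others, and this library also had the Mirg level that goes against its label. Apoa4 was at 3.37 in hypoglycemic KO replicate 7, against 4.46 to 5.09. Apoc3 was at 4.71 in wild-type replicate 2, against 6.26 to 6.46 in the other 4, and this library was among the 3 with the highest pancreatic acinar markers. None of these values was removed from the results above.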

How the results depend on the processing

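Against the values above, 1018 recomputations of the members' results kept their direction and their side of the threshold in 939, reversed in 50, lost a call in 22 and gained one in 7, and the cause of these changes was not tested. The results that reversed were differences between -0.19 and 0.08 and slopes of -0.21 (Apoa4) and -0.06 (Angptl8), none of them called. The number of pups, 3 in normoglycemic KO, limits the precision.

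Between the KO groups the count of members called went from 1 to 0 with no filter on dim probes, outlier spots kept, the mean of a gene's probes, the slide or the replicate number as a block, within slide 1, within slide 2, with only the groups compared, without the 3 libraries richest in pancreas transcripts, and without these and the library labelled hypoglycemic KO replicate 2. Leaving out each library in turn gave 0 to 2 members there and also between hypoglycemic KO and wild type. The slope on glucose called 0 members with a group term and 3 without it. Angptl8 kept its call between the KO groups in 8 of 30 alternatives and its direction in all 30, with limma adjusted p from 0.0156 to 0.530.

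The deviations of 11 same-numbered pairs of pups correlated at r = -0.18 to 0.30. Pairs with different numbers were not set beside them, so these values cannot decide whether replicate numbers pair the pups. With a replicate block the Angptl8 difference between the KO groups was -2.62 and not called (limma adjusted p = 0.0823), the Lipc difference of normoglycemic KO from wild type -0.028, the Lpl difference between the KO groups 0.030, the difference of Apoa4 between the KO groups -0.40, and the glucose slope of Apoa4 within groups 0.022.

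Counts of all genes called moved more than the members' values. Between the KO groups 15 genes were called, against 0 with a slide or replicate block, within slide 1 or with no filter on dim probes, 2 with only the groups compared, 3 within slide 2, 9 with the mean of a gene's probes, 28 with normexp, 30 in the deposited values and 166 with all arrays required above background. With each library left out that count ran from 0 to 980, with 980 without hypoglycemic KO replicate 4 and 308 without wild-type replicate 2. Between hypoglycemic KO and wild type 5 genes were called, against 757 without wild-type replicate 1, 519 without hypoglycemic KO replicate 4, 138 without the library labelled replicate 2, 77 with all arrays required, 50 in the deposited values, 47 with normexp, 15 with the array row as a block, 2 with no filter on dim probes and 0 with a replicate block, within either slide, without wild-type replicate 3, 4 or 5, without hypoglycemic KO replicate 1 or 7, or without the 3 libraries richest in pancreas transcripts. Between normoglycemic KO and wild type, where none was called, alternatives called at most 3.

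For normoglycemic KO against wild type, Apob turned to 0.054 with quantile normalization, 0.021 with normexp, 0.074 in the deposited values, 0.0041 with outlier spots kept, 0.037 with the array row as a block and 0.13 within slide 1, and ran from -0.10 to 0.053 with each library left out. In that comparison Apoa1 turned to 0.035 with quantile normalization and 0.044 in the deposited values, and ran from -0.043 to 0.0052 with each library left out. Apoc3 turned there to -0.031 with the mean of a gene's probes, -0.056 with the array row as a block, -0.89 within slide 2 and -0.26 without the pancreas-rich libraries (also with the library labelled hypoglycemic KO replicate 2 left out), and ran from -0.27 to 0.36. Lipc turned there to -0.0033 in the deposited values, -0.036 with the slide as a block and -0.21 within slide 1, and ran from -0.067 to 0.12.

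For hypoglycemic KO against wild type, Apoc3 turned to 0.12 within slide 1 and Mttp to -0.16 within slide 2. Between the KO groups, Apoc3 turned to 0.78 within slide 2 and ran from -0.49 to 0.12 with each library left out. Lpl turned there to 0.014 with the mean of its probes, 0.0020 with the slide as a block and 0.12 within slide 1, and ran from -0.15 to 0.071. The slope of Angptl8 within hypoglycemic KO turned to 0.11 with a replicate block, 0.23 within slide 1, 0.085 without the pancreas-rich libraries and 0.020 without these and the library labelled replicate 2, and ran from -0.36 to 0.085 with each library left out.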

Other observations

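Among 24 listed regulators of lipoprotein genes, 8 were higher and 3 lower at an unadjusted p under 0.05 in hypoglycemic than in normoglycemic KO, none of them called, beside 2577 higher and 2776 lower of all 27553 genes. Ppargc1a, a coactivator of fasting metabolism, differed by 1.93 ± 0.51 (3.81-fold higher, 6 of 7 pups above all 3, limma adjusted p = 0.0968). Srebf1, a driver of fatty acid synthesis, differed by -0.87 ± 0.28 (1.83-fold lower, all 7 below all 3, limma adjusted p = 0.132). These groups did not overlap for 8.87% of all genes. Against wild type, 6 of the 24 were higher and 6 lower in hypoglycemic KO at an unadjusted p under 0.05. Over all genes the shares were 9.92% higher and 8.91% lower. There Nr0b2, a repressor in bile acid synthesis, differed by -1.26 ± 0.37 in hypoglycemic KO (2.39-fold lower, limma adjusted p = 0.118). For Nr0b2, 6 of 7 pups were below all 5 wild-type pups and 1 was above them all. In normoglycemic KO, Nr0b2 differed from wild type by -0.65 ± 0.46 (limma adjusted p = 0.963). There all 3 pups were below all 5, beside 3.97% of all genes without overlap. Nr1d1, a repressor of the circadian clock, differed by 1.04 ± 0.42 between hypoglycemic KO and wild type (2.06-fold higher, limma adjusted p = 0.198).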
